A study of Mus musculus with 5 samples.

Results

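The numbered Zfp genes are mouse genes for zinc-finger proteins that are named by number only. Members were taken by name: every symbol of the deposited exon table made of Zfp, digits and at most 1 closing letter, apart from Zfp521. This gave 70 of the 10855 genes listed under a symbol, spread over 385 exon bins (the pieces into which exons are divided where transcripts differ). RNA with poly(A) tails was sequenced from cultured mouse embryonic stem cells, the pluripotent cells of the early embryo. The deleted group (2 libraries, deleted 1 and 2) carried a deletion of the −45 super-enhancer, a dense group of enhancers of the pluripotency gene Nanog. The wildtype group (3 libraries, wildtype 1 to 3) did not. A further deleted library named by the design text is not analysed here. Treatment lasted 6 days with either ethanol or the tamoxifen derivative 4OHT, and the labels do not assign a treatment to a library. Nor do they tell clones or separate cultures apart, so the p-values rest on how far these libraries differ within a group, which may be only technical.

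Most proteins of this kind hold a row of C2H2 fingers, loops in which paired cysteines and histidines grip a zinc ion and the loop reads DNA. Many carry a KRAB domain as well, which binds the corepressor TRIM28. TRIM28 in turn brings the histone methyltransferase SETDB1, and in embryonic stem cells this machinery silences retroelements and protects imprints. Many of the genes arose by tandem duplication and lie in clusters, so neighbours resemble one another and reads can be split among copies. The counts of single members are uncertain to that extent.

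Genes listed by symbol were the weakly counted minority of the table. They held 0.328% to 0.375% of the counts of each library, and the others stood under assembly identifiers that no source used here pairs with a symbol. GENCODE vM21 lists 399 numbered Zfp symbols besides Zfp521, so the 70 are the part of the family with a row of its own. None of the 16 naive pluripotency markers, Nanog among them, had such a row, and the cell type and the deletion could not be checked on them. Totals of bin counts ranged from 93574609 to 213042746, the largest being wildtype 3, and 3 counts were worth 0.0139 to 0.0321 CPM (counts scaled by library total and edgeR's TMM factors). This limit covers counting error only. Wildtype 3 stood apart: the chi-square per degree of freedom was 87.4 and 93.4 against the other wildtype libraries and 9.96 between those, and its tested members lay a median of 0.17 higher on the log2 scale. In the deleted libraries, all 11 tested genes of the two-cell-like list were higher, as were 4 of 6 fibroblast genes, while 3 of 8 primitive endoderm and 2 of 4 trophectoderm genes were lower. Over all tested genes 20.0% were higher and 19.7% lower. Dux, Usp17ld, Tdpoz3 and the fibroblast gene Col6a1 reached the low-count filter (0.0871 CPM before TMM scaling) in no wildtype library. Among wildtype libraries, Usp17lc reached it in wildtype 3 alone and Tmem92 in wildtype 2 alone, fewer than the filter asked for. All of these genes were thus tested because they were high in the deleted libraries. Summed over all genes of a list with a row, two-cell-like markers stood at 17.2 to 17.6 CPM in deleted and 2.97 to 3.26 CPM in wildtype libraries, with Tcstv1 and Tcstv3 at 0. Fibroblast markers summed to 9.66 to 9.90 CPM in deleted and 6.76 to 9.51 CPM in wildtype libraries. Primitive endoderm markers summed to 5.20 to 6.47 CPM in deleted and 7.91 to 9.07 CPM in wildtype libraries, and trophectoderm markers to 1.66 to 1.88 and 2.47 to 2.88 CPM in these groups. In bulk RNA, fewer cells of a type and less RNA per cell cannot be told apart. The part of these markers in the results on Zfp genes was not tested.

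Promoters are shown for 3 of the members on which the results turn. Zfp329 and Zfp467 passed the threshold whichever library was left out, and Zfp784 had the smallest p of the members that were higher. The sequences are RefSeq's, on GRCm38.p6, a build other than the mm9 named in the submitters' processing notes. Each runs 5′ to 3′ along the strand of the gene, from 250 bases before to 50 bases after the start of transcription. Capitals mark letters that match 1 of 6 short motifs searched on both strands, and only the Zfp329 promoter had any.
Zfp329, chr7:12818811-12819110, minus strand: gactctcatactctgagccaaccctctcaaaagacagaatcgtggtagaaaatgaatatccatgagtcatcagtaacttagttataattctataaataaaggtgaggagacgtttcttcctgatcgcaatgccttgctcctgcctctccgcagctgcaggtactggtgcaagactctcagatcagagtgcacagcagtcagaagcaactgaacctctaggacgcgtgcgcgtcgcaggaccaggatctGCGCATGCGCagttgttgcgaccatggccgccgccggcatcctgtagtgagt
Zfp467, chr6:48445041-48445340, minus strand: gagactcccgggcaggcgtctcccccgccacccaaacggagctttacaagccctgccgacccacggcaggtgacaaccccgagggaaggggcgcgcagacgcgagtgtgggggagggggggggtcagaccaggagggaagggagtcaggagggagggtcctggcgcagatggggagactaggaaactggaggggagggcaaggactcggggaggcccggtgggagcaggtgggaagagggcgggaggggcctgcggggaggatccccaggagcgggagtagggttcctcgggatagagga
Zfp784, chr7:5038397-5038696, minus strand: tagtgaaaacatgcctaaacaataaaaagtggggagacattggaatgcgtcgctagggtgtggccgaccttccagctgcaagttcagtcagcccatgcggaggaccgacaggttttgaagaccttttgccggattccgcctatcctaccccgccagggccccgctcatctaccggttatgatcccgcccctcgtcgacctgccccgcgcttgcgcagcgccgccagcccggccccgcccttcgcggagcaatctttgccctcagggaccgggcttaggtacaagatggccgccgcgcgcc

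The capitals in the Zfp329 promoter cover 2 overlapping copies, 1 on each strand, of GCATGCGC, a short site known for the factor NRF1. These letters occurred in 4 of 70 promoters of the 56 members with an entry (5.71%) and in 2.71% of the 32851 promoters of the table. The other motifs were CCGGAAGT for ETS factors, AAGATGGCG for YY1, TGACGTCA for the cyclic AMP response, TATAAAA and the octamer ATGCAAAT. The ETS letters stood in 8.57% of the members' promoters and in 3.89% of all. TATAAAA and the YY1 letters stood in 0% of the members' promoters, against 5.48% and 1.40% of all. For the cyclic AMP letters the shares were 1.43% of the members' promoters and 1.79% of all, and for the octamer 1.43% and 1.74%. The members' promoters held a median of 14.5 CpG dinucleotides in 300 bases, against 7 in all promoters, and 56.3% G or C, against 52.7%. The Zfp329, Zfp467 and Zfp784 promoters held 15, 18 and 27 CpG.

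GENCODE annotates 67 of the 70 members as protein-coding and Zfp389, Zfp572 and Zfp939 as pseudogenes. Of the 70, 55 had enough counts for a test and 15 did not. The low-count filter asked for 0.0871 CPM before TMM scaling, which Zfp9 reached in deleted libraries alone, Zfp389 in 2 deleted and 1 wildtype library, and Zfp385b in 1 library of each group. The tested members moved in both directions, and most did not pass the threshold. Bin counts were summed per gene and compared by edgeR's quasi-likelihood F test over all tested genes, with Benjamini-Hochberg adjusted p under 0.05 as the threshold. In the deleted cells 4 members were higher (7.27%), 8 were lower (14.5%) and 43 did not pass. Of all tested genes 20.0% were higher and 19.7% lower, and of the tested genes with a symbol 19.0% were higher and 13.1% lower. The share of lower members was thus near that of other symbols, and the share of higher members was below it, a difference that was not tested. The members' median log2 fold change, deleted over wildtype, was −0.10, with quartiles of −0.22 and 0.17. Over all tested genes the median was 0.01, and over tested symbols 0.07.

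Tested members were counted more than most symbols, with a median log2 CPM of 0.40 against −1.12. Among genes whose mean log2 CPM was 0 or more, a level chosen after seeing the data, 2 of 31 members were higher and 6 were lower. Of the 1017 symbols at that level 21.3% were higher and 23.0% lower. The median log2 fold change there was −0.16 for members and −0.01 for symbols. Summed over all 70 members, the level was 80.7 and 84.4 CPM in deleted 1 and 2, and 89.7, 86.4 and 100.6 CPM in wildtype 1, 2 and 3. Both deleted sums were below every wildtype sum. Without the 12 members past the threshold, the sums of the groups overlapped. They were then 60.8 and 64.5 CPM in deleted 1 and 2, and 63.1, 60.7 and 72.4 CPM in wildtype 1, 2 and 3. The 12 were picked by their p on these same values, and most of them were lower. Overlap without them was thus likely in advance and does not show that the other members were unchanged.

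**Figure D1:**
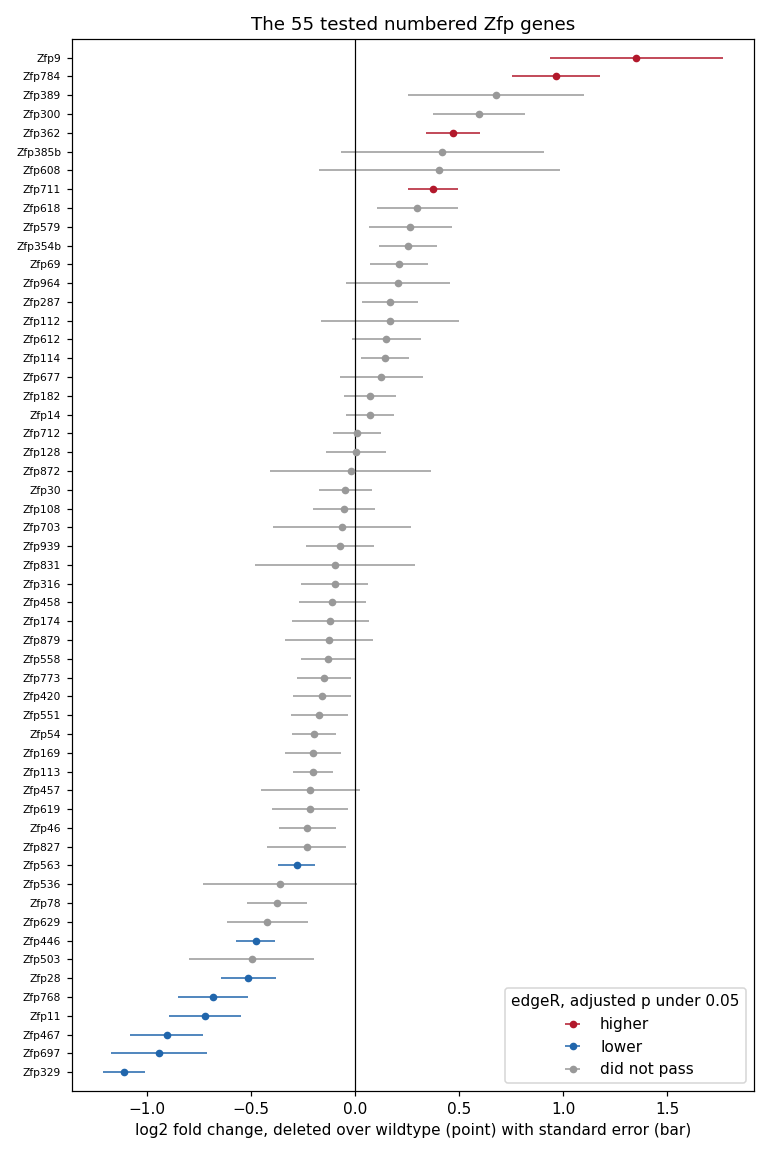
Log2 fold change, deleted over wildtype, of the 55 tested numbered Zfp genes (points, with standard errors as bars), ordered by size and coloured by the edgeR call. Values run from −1.11 for Zfp329 to 1.35 for Zfp9, and 33 of the 55 lie below 0.

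Zfp329, a C2H2 zinc-finger gene of chromosome 7, differed most clearly. It stood at 2.79 and 3.11 CPM in the deleted libraries and at 6.01, 6.33 and 6.77 CPM in the wildtype libraries. Both deleted values were well under the lowest wildtype value. The means were 2.95 ± 0.228 CPM over the deleted (SD, n = 2) and 6.37 ± 0.378 CPM over the wildtype libraries (SD, n = 3), which is a log2 fold change of −1.11 ± 0.10 (SE; adjusted p = 8.87e-05 by edgeR). Wildtype was thus 2.16-fold higher than deleted. The call held without any single library (edgeR adjusted p at most 0.00255), and Zfp329 alone among the members passed against a fold change of 1.5 (edgeR adjusted p = 0.00299). Over all tested genes 2.87% were higher and 2.40% lower by that rule, so 0 higher and 1 lower of 55 members is near the background. Its first bin held 98.6% of its counts, 254 and 303 in deleted and 736, 716 and 1442 in wildtype libraries. Its other bin, with 6 and 5 against 12, 7 and 20 counts, was lower too.

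Per kilobase of annotated exon (GENCODE vM21), Zfp329 ranked 16 of 55 in deleted cells and 2 of 55 in wildtype cells. Its level was 0.438 ± 0.0339 CPM per kb in deleted (SD, n = 2) and 0.946 ± 0.0562 CPM per kb in wildtype cells (SD, n = 3). Zfp54 ranked 1 in both groups, at 0.936 ± 0.0228 CPM per kb in deleted and 1.07 ± 0.0736 CPM per kb in wildtype cells. Below them in wildtype cells came Zfp551, Zfp827 and Zfp563 at 0.866, 0.865 and 0.864 CPM per kb, which did not differ beyond their SDs of 0.0403 to 0.188. These lengths come from an annotation other than the authors', so the order is approximate.

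Zfp467 and Zfp446 were the other members that stayed past the threshold whichever library was left out. Zfp467 encodes a STAT3-associated factor known for steering marrow stromal cells towards fat rather than bone. It had 0.407 and 0.454 CPM in deleted and 0.820, 0.753 and 0.847 CPM in wildtype libraries. The groups lay far apart, with a log2 fold change of −0.91 ± 0.18 (SE; adjusted p = 0.00346 by edgeR, and at most 0.0381 without 1 library). Of the 6 Zfp467 bins with at least 10 counts in all, each was lower in deleted cells. Zfp446, whose human counterpart carries SCAN and KRAB domains, had 3.55 and 3.39 CPM in deleted and 4.77, 4.64 and 5.08 CPM in wildtype libraries. Its difference was smaller but steady, with a log2 fold change of −0.48 ± 0.09 (SE; adjusted p = 0.00381 by edgeR, and at most 0.0413 without 1 library). All 9 Zfp446 bins were lower in the deleted cells.

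**Figure D2:**
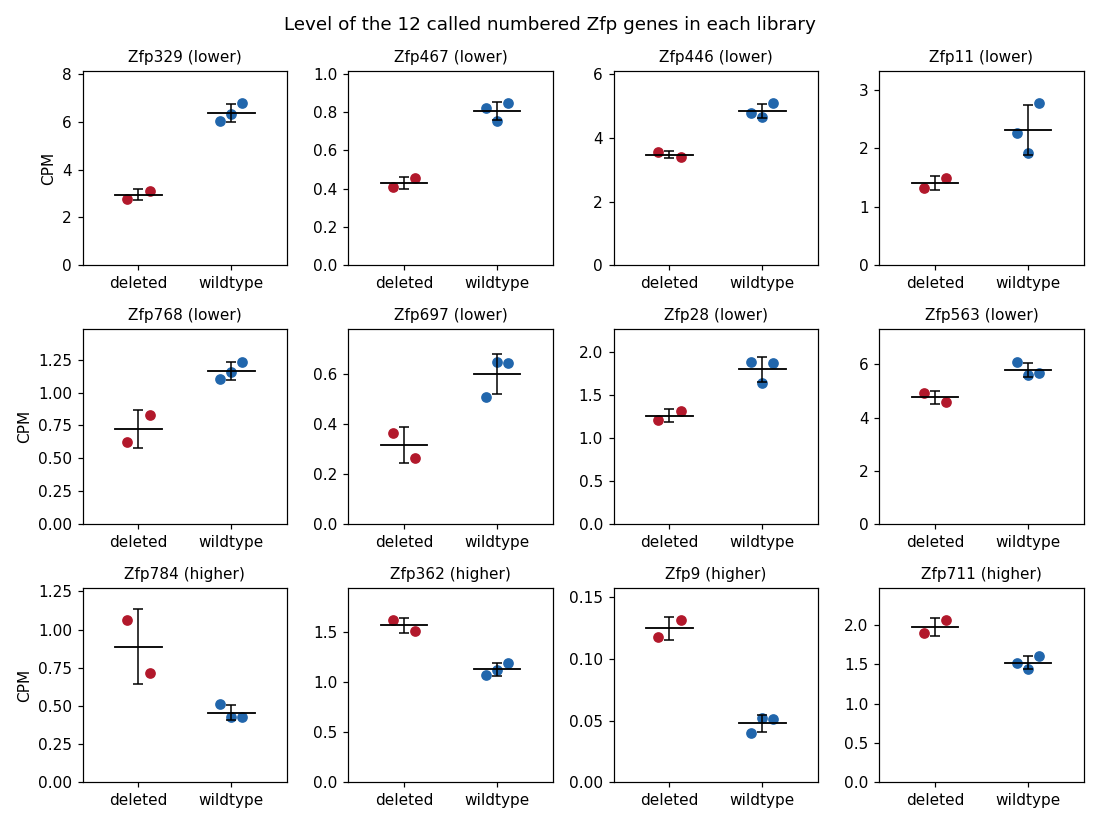
CPM of the 12 numbered Zfp genes past the edgeR threshold, in deleted (left) and wildtype (right) libraries, with the mean as a line and the SD as a bar (n = 2 and n = 3). In each panel the points of the groups do not overlap, as in Zfp329, at 2.79 and 3.11 CPM against 6.01 to 6.77 CPM. The genes were picked by their p on these same values, so a lack of overlap was likely in advance.

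The other 5 lower members kept their direction but missed the threshold when certain single libraries were left out. Over all genes, too, such fits called fewer, with 1837 higher and 1718 lower without deleted 1, and 1916 and 2225 without deleted 2, against 3245 and 3208 with every library. Zfp11 had 1.33 and 1.49 CPM in deleted and 2.25, 1.92 and 2.77 CPM in wildtype libraries. The wildtype libraries were the more scattered, and the log2 fold change was −0.72 ± 0.17 (SE; adjusted p = 0.00999 by edgeR). The adjusted p became 0.0902 when deleted 1 was left out and 0.0509 when deleted 2 was, at log2 fold changes of −0.64 and −0.83. Zfp768, whose human counterpart binds copies of an old class of interspersed repeats, had 0.622 and 0.828 CPM in deleted and 1.10, 1.16 and 1.24 CPM in wildtype libraries. Its deleted libraries differed from each other, and the log2 fold change was −0.68 ± 0.17 (SE; adjusted p = 0.0114 by edgeR). The call ended without deleted 1, at −0.50 (edgeR adjusted p = 0.111). Zfp697 had 0.364 and 0.262 CPM in deleted and 0.506, 0.648 and 0.643 CPM in wildtype libraries. All deleted values were the lower ones, at a log2 fold change of −0.94 ± 0.23 (SE; adjusted p = 0.0115 by edgeR), and without deleted 2 it was −0.74, with an adjusted p of 0.1000. One bin, of 3, held 86.0% of the Zfp697 counts, and 1 of the 3 bins was not lower.

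Zfp28 had 1.21 and 1.31 CPM in deleted and 1.89, 1.64 and 1.87 CPM in wildtype libraries. The deleted libraries agreed closely and lay below the wildtype ones, with a log2 fold change of −0.52 ± 0.13 (SE; adjusted p = 0.0137 by edgeR). Leaving out deleted 1 gave an adjusted p of 0.103, and leaving out deleted 2 gave 0.0523, at log2 fold changes of −0.46 and −0.59. Zfp563 had 4.94 and 4.58 CPM in deleted and 6.10, 5.60 and 5.67 CPM in wildtype libraries. Its log2 fold change was the smallest past the threshold, −0.28 ± 0.09 (SE; adjusted p = 0.0347 by edgeR). The adjusted p was 0.0585 to 0.176 without any 1 library other than wildtype 3, at log2 fold changes of −0.34 to −0.25. The Zfp563 difference lay in bin 4, which held 86.6% of the counts, while the other 3 bins were not lower on average.

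Among the 4 higher members, Zfp784 had 1.06 and 0.717 CPM in deleted and 0.514, 0.429 and 0.426 CPM in wildtype libraries. Deleted 1 was well above deleted 2, and both were above wildtype. The means were 0.889 ± 0.243 CPM over the deleted (SD, n = 2) and 0.456 ± 0.0503 CPM over the wildtype libraries (SD, n = 3), which is a log2 fold change of 0.96 ± 0.21 (SE; adjusted p = 0.00672 by edgeR). Without deleted 1 the log2 fold change was 0.66 and the adjusted p 0.0923 (edgeR). Zfp362, a relative of the C2H2 gene Zfp384, had 1.62 and 1.51 CPM in deleted and 1.07, 1.12 and 1.19 CPM in wildtype libraries. Its libraries agreed within groups, and the log2 fold change was 0.47 ± 0.13 (SE; adjusted p = 0.0193 by edgeR). The call ended when any 1 library apart from wildtype 3 was left out (log2 fold change 0.42 to 0.50, adjusted p by edgeR 0.0501 to 0.128), and in the most counted bin alone (log2 fold change 0.28; edgeR adjusted p = 0.268).

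Zfp711 lies on the X chromosome. Its human counterpart works with the histone demethylase PHF8 and is linked to intellectual disability. The level was 1.90 and 2.06 CPM in deleted and 1.52, 1.44 and 1.61 CPM in wildtype libraries. The groups were close but separate, with a log2 fold change of 0.38 ± 0.12 (SE; adjusted p = 0.0342 by edgeR), and all 9 Zfp711 bins were higher. This call ended when any 1 library apart from wildtype 3 was left out (log2 fold change 0.30 to 0.43, adjusted p by edgeR 0.0912 to 0.222). It also ended with DESeq2 (adjusted p = 0.0771), with no low-count filter (edgeR adjusted p = 0.0577) and with symbol rows alone (0.0777). Zfp9 rested on very few reads, 11 and 13 counts in deleted and 5, 6 and 11 counts in wildtype libraries. That is 0.118 and 0.131 CPM in deleted and 0.0402, 0.0525 and 0.0509 CPM in wildtype libraries, with a log2 fold change of 1.35 ± 0.41 (SE; adjusted p = 0.0293 by edgeR). Only the deleted libraries reached the low-count filter, so Zfp9 was tested because it was high there. Bin 1 held 78.3% of the Zfp9 counts, 10 and 4 in deleted and 5, 6 and 11 in wildtype libraries. In that bin deleted 2 did not stand out, and the counts of the other bins were all in deleted libraries. The call ended without deleted 1, deleted 2 or wildtype 1 (log2 fold change 1.24 to 1.43, edgeR adjusted p = 0.0695 to 0.155), with DESeq2 (adjusted p = 0.121) and with symbol rows alone (edgeR adjusted p = 0.0510).

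**Figure D3:**
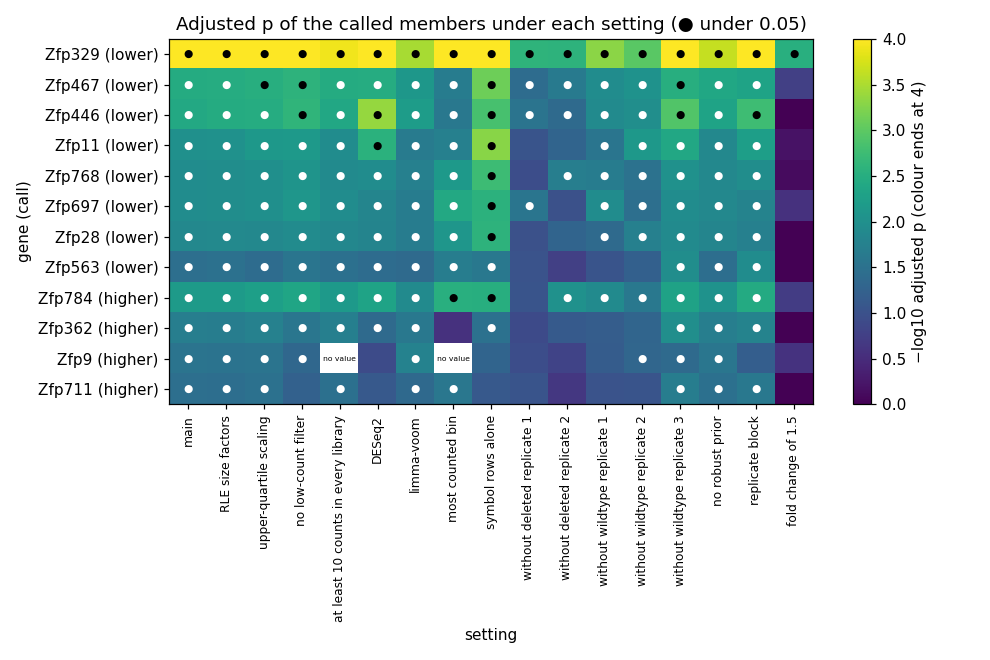
Adjusted p of the 12 members under each setting, as −log10 (colour) with a dot where it is under 0.05. Zfp329 has a dot in every column, Zfp467 and Zfp446 lack one only at the fold change of 1.5, and without deleted 1 none of the 4 higher members has one.

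By known role, few members had rows. Of 12 listed regulators of stem cells and the early embryo only Zfp352 had one, and of 10 listed genes for imprint and retroelement silencing none did. Zfp352, a gene of the early cleavage embryo that also belongs to the two-cell-like list, had 11 and 7 counts in deleted and 0, 1 and 4 counts in wildtype libraries. That is 0.118 and 0.0707 CPM in deleted and 0, 0.00875 and 0.0185 CPM in wildtype libraries. It was higher in both deleted libraries but under the low-count filter. With no filter the log2 fold change was 2.98 (edgeR adjusted p = 0.0127), and with DESeq2 3.21 (adjusted p = 0.0215).

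Of 9 listed genes of neural development, 5 had rows and 3 were tested, with Zfp711 higher and the others short of the threshold. Zfp503, a regulator of striatal and limb development, had 0.129 and 0.172 CPM in deleted and 0.217, 0.236 and 0.194 CPM in wildtype libraries. The values did not overlap, yet the log2 fold change of −0.50 ± 0.30 (SE) missed the threshold (edgeR adjusted p = 0.223). Zfp536, a repressor of neuronal differentiation, had 0.236 and 0.232 CPM in deleted and 0.426, 0.175 and 0.296 CPM in wildtype libraries, which overlapped (log2 fold change −0.36 ± 0.37; edgeR adjusted p = 0.476). Zfp488, a partner of Olig2 in oligodendrocytes, had 1 and 4 counts in deleted and 5, 5 and 7 in wildtype libraries and was not tested. Zfp804a was listed at 0 throughout. In the germ cell list Zfp541, a meiotic gene, had 6 and 4 counts in deleted and 9, 6 and 12 in wildtype libraries. In the blood, immune and epithelial list, Zfp703, a relative of Zfp503, had 0.257 and 0.172 CPM in deleted and 0.169, 0.289 and 0.218 CPM in wildtype libraries, with no separation (log2 fold change −0.06 ± 0.33; edgeR adjusted p = 0.899). Zfp366 of that list had at most 2 counts in any library.

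The 5 most counted members short of the threshold were Zfp827, Zfp113, Zfp182, Zfp114 and Zfp54. Zfp827, whose human counterpart recruits the NuRD complex to telomeres, had 6.05 and 7.15 CPM in deleted and 6.32, 7.30 and 9.59 CPM in wildtype libraries. Wildtype 3 was the highest there, the groups overlapped and the log2 fold change was −0.23 ± 0.19 (SE; adjusted p = 0.374 by edgeR). Zfp113 had 3.40 and 3.82 CPM in deleted and 4.20, 4.05 and 4.22 CPM in wildtype libraries (log2 fold change −0.21 ± 0.10; edgeR adjusted p = 0.123). Zfp54 had 2.60 and 2.70 CPM in deleted and 2.88, 2.96 and 3.27 CPM in wildtype libraries (−0.20 ± 0.11; edgeR adjusted p = 0.171). Both were lower in each deleted library without passing. Zfp182 had 3.39 and 3.81 CPM in deleted and 3.51, 2.96 and 3.77 CPM in wildtype libraries (log2 fold change 0.07 ± 0.13; edgeR adjusted p = 0.688). Zfp114 had 3.71 CPM in each deleted library and 3.05, 3.23 and 3.76 CPM in wildtype libraries (0.14 ± 0.11; edgeR adjusted p = 0.354). In both, wildtype values fell on either side of at least 1 deleted value. The 43 members that did not pass had log2 fold changes from −0.50 to 0.68, with standard errors of 0.10 to 0.58.

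Chromosome 7 held 21 of the 70 members and 20 of the 55 tested. There 1 member was higher (Zfp784), 4 were lower (Zfp329, Zfp446, Zfp28 and Zfp768) and 15 did not pass, with a median log2 fold change of −0.16. Of the 262 other tested symbols of that chromosome 80 were higher and 26 lower, with a median of 0.24. At the same level of 0 or more, the members had 0 higher and 4 lower of 15, and the other symbols 35 higher and 5 lower of 77. Chromosome 8 had 4 tested members, Zfp827, Zfp612, Zfp964 and Zfp703, of which none passed, with a median of 0.04. Its 162 other tested symbols had 69 higher and 2 lower, and a median of 0.56. Of the other chromosomes with at least 4 tested members, chromosome 13 had 0 of 5 past the threshold and a median of −0.11. Its other symbols had 16.1% higher and 15.4% lower, and a median of −0.03. On chromosome 4, 1 of 4 members passed, Zfp362, which was higher, and the median was 0.25. The other symbols there had 13.6% higher and 16.0% lower, and a median of 0.02. The members' median lay below that of the other symbols on 9 of the 15 chromosomes with a tested member, among them 7, 8 and 13, and above it on 6, among them 4. On chromosomes 3, 14, 16 and 18 it rested on 1 member. At the level of 0 or more, 2 members of chromosome 13 and its other symbols both had a median of −0.10. There, 2 members of chromosome 8 had −0.04 against 0.39, and 3 members of chromosome 4 had 0.21 against −0.08. These differences were not tested.

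**Figure D4:**
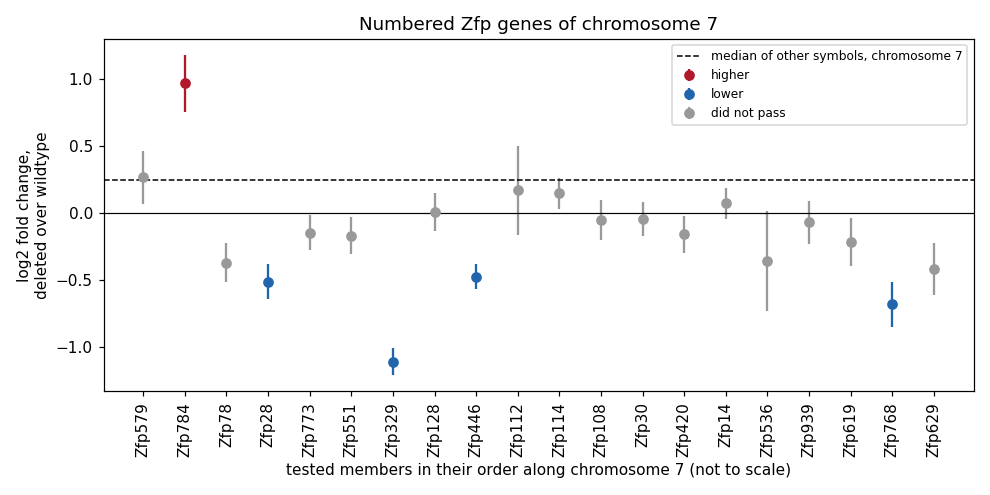
Log2 fold change, deleted over wildtype, with standard error, of the 20 tested members of chromosome 7 in their order along it. Most points lie under the dashed line at 0.24, the median of the other tested symbols of the chromosome, and Zfp784 at 0.96 is the exception above it by the most.

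Along chromosome 7, called members did not form 1 block. Zfp784 stood beside Zfp579 in the order of members, with log2 fold changes of 0.96 and 0.26, and Zfp78 and Zfp28 came next at −0.38 and −0.52. Zfp78 is the RefSeq neighbour of Zfp28, and it missed the threshold (edgeR adjusted p = 0.0694). Then came Zfp773, Zfp551 and Zfp329 at −0.15, −0.17 and −1.11, and Zfp128 and Zfp446 at 0.003 and −0.48. The 9 tested members from Zfp112 to Zfp619 did not pass, at −0.36 to 0.17, and Zfp768 and Zfp629 closed the order at −0.68 and −0.42. Of the RefSeq neighbours of called members 6 were tested, and 1 passed. Of tested genes with a symbol 19.0% were higher and 13.1% lower, so 1 of 6 is not above that background. The neighbour that passed was Pof1b beside Zfp711, a gene for an actin-binding protein of epithelia, with a log2 fold change of 1.64 ± 0.16 (SE; adjusted p = 0.000135 by edgeR). The others were Zfp78, Slc27a5 beside Zfp446 at −0.74 ± 0.46, Morc2b beside Zfp563 at −0.14 ± 0.22, Trim62 beside Zfp362 at 0.09 ± 0.28, and Itgal beside the lower Zfp768 at 0.17 ± 0.10 (log2 fold change ± SE).

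Exon use, meaning how the counts of a gene divide among its bins, was tested in 35 members, and none passed the threshold with edgeR's diffSpliceDGE (Simes adjusted p under 0.05). Over all tested genes 2.76% passed. At an unadjusted p under 0.05 the count was 1 member, Zfp114. Bin 2 of Zfp114 held 9.54% and 9.24% of its counts in deleted and 3.96%, 5.42% and 6.03% in wildtype libraries, higher in both deleted libraries (edgeR Simes adjusted p = 0.598). Bin 2 of Zfp11 held 4.03% and 2.70% in deleted and 7.14%, 7.31% and 6.02% in wildtype libraries. Bin 1 of Zfp939 held 15.0% and 16.3% in deleted and 7.29%, 7.53% and 11.7% in wildtype libraries. The bin given for each gene is the one with the smallest p in it, so shares that lay apart were likely in advance. The shares of Zfp11 and of Zfp939 did not overlap between the groups, yet neither gene passed (unadjusted Simes p 0.0932 for Zfp11 and 0.131 for Zfp939, edgeR). Zfp939 is annotated as a transcribed pseudogene, and as a whole gene it had 1.15 and 1.54 CPM in deleted and 1.54, 1.28 and 1.43 CPM in wildtype libraries, with no separation (log2 fold change −0.07 ± 0.16; edgeR adjusted p = 0.751).

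The 15 members without a test had 0 to 37 counts over all libraries. Of these, 12 had counts, and Zfp131, Zfp735 and Zfp804a were listed at 0 in each library. Zfp131 has 24 bins, and reads of a gene listed at 0 may stand under an assembly identifier. Among the 24 listed genes of the KRAB repression machinery, only Chd3, a NuRD remodeller, had a row. It had 5.89 and 7.46 CPM in deleted and 4.42, 4.93 and 8.98 CPM in wildtype libraries, with wildtype 3 the highest (log2 fold change 0.11 ± 0.35; edgeR adjusted p = 0.829). Trim28, Setdb1 and the other genes of that list were not analysed here.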

How the data were processed

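The authors deposited raw read counts per exon bin for 2 deleted and 3 wildtype libraries in a table of 243771 bins. Per the submitters' processing notes, the aligner was STAR and the build mm9. No source used here names the counter, its annotation or a strand setting, so reads of a gene and of an overlapping or antisense partner may be mixed. A read that spans bins may be counted in each. Bin counts were summed per gene, and 56 spike-in names were left out. Across all genes, filterByExpr removed low counts, TMM set the scaling, and tests were run in edgeR 4.0.16 (limma 3.58.1, R 4.3.3; quasi-likelihood, robust prior). Exon use was tested with diffSpliceDGE. Both were tested on simulated data with the same spread between replicates for every gene. No library stood apart there as wildtype 3 did here, so that test does not cover such a library. Alternatives included DESeq2 1.42.0 and limma-voom. Chromosomes and exon lengths came from GENCODE vM21, promoters and gene order from RefSeq on GRCm38.p6.

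Members and lists were chosen with earlier results of these data known. Named genes are the up to 12 higher and 12 lower members with the smallest p, tested members of the role lists, the 5 most counted members short of the threshold and the 3 with the smallest exon-use p. The grouping of members by protein sequence was not analysed here.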

Additional observations from a re-analysis of the deposited data

How the results depend on the processing

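The count of lower members was 8 in most settings and 10 when the symbol rows alone were scaled and tested. That of higher members was 4, with 5 under upper-quartile scaling, 3 with DESeq2, with at least 10 counts in every library and in the most counted bin, and 2 among symbol rows alone. The genes behind these counts changed. Zfp352 was among them with no low-count filter and with DESeq2, and Zfp300 under upper-quartile scaling and in the most counted bin. Zfp711 dropped out with no low-count filter, Zfp9 and Zfp711 with DESeq2, and Zfp362 in the most counted bin. Zfp9 had no test with at least 10 counts in every library or in the most counted bin. Leaving out 1 library gave 0 to 5 higher and 4 to 9 lower members, the fewest higher without deleted 1 (over all genes 1837 higher and 1718 lower then, against 3245 and 3208), and with a lone deleted library the spread was taken from wildtype. Without wildtype 1 the higher count was 1, and without deleted 2 or wildtype 2 it was 2. Against a fold change of 1.5 the counts were 0 and 1 of 55, and over all genes 467 and 391 of 16259. All 12 called members kept their direction in up to 16 alternatives each, and 3 stayed past the threshold without any 1 library. Without the robust prior and against a fold change of 1.5, the log2 fold changes were those of the main fit, so directions could not turn. The 12 were also picked on these same libraries, so kept directions were likely in advance. The median log2 fold change of members was −0.16 to −0.05 and moved by less than 0.0912, the SD of the members' median level over wildtype libraries. That SD is one of levels and not of fold changes, and it is nearly as large as the main median of −0.10. It therefore does not show that the median held steady. Exon use gave 0 called members with all libraries, with at least 10 counts in every library, without any 1 library and with the block, the settings in which it was run. Among the named members short of the threshold, directions turned for Zfp182, Zfp703 and Zfp939. Zfp182 was at −0.0073 among symbol rows alone, and at −0.0353 to 0.15 without 1 library. Without 1 library, Zfp703 ran from −0.38 to 0.18 and Zfp939 from −0.33 to 0.12. Directions of the unnamed members short of the threshold were not compared between settings. The cause of these changes was not tested.

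Replicate numbers are shared by the groups, but nothing ties same-numbered libraries together. Their deviations from group means correlated at 0.05 for number 1 and −0.05 for number 2 over 16259 genes. The deviations of the 2 deleted libraries mirror each other by construction, and pairs of unlike number gave values as large. Deleted 1 gave 0.05 with wildtype 2, and deleted 1 and 2 gave −0.09 and 0.09 with wildtype 3. The correlations thus cannot tell whether same-numbered libraries belong together. With the replicate block, 4 members were higher and 8 lower, while over all genes 4203 were higher and 3997 lower. Zfp9 missed the threshold with the block (edgeR adjusted p = 0.0648), and Zfp300, named after its values were seen, passed (0.84; 0.00344, against 0.59 and 0.0587 without the block). Wildtype 3 has no partner in the block, so it adds nothing to the group difference there. The fit without wildtype 3, in which Zfp300 was at 0.82 (edgeR adjusted p = 0.00368), is therefore not a result separate from that of the block. Depth limits the members of few counts: the 15 without a test had at most 37 counts in all libraries together.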
